A study of Rattus norvegicus with 16 samples.

Results

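The 10 genes followed here in the wall of the right ventricle were the titin gene Ttn, its splicing regulator Rbm20, the muscle ankyrin repeat genes Ankrd1, Ankrd2 and Ankrd23, and the sarcomere genes Csrp3, Tcap, Mypn, Fhl1 and Fhl2. They were chosen by name as titin and its stretch-sensing partners, with earlier results of these data known. Of these 10 genes 9 were paired with a probe set of their own, among 17245 genes in all, and Tcap was not analysed here. The 16 samples, 1 array each, comprised 5 labelled RVF+, 4 labelled RVF and 7 labelled CON, the controls of the design text. All came from male Wistar rats, which weighed 160 to 180 g, after a sham operation or banding of the pulmonary artery, a constriction that makes the right ventricle pump against pressure. The labels do not state the operation of each sample, the rats' age, the time after surgery or what RVF+ and RVF stand for, and they do not say that samples came from separate animals. All p-values therefore measure variation among these samples only, and this variation may be technical. The title of the series concerns right ventricular failure under chronic pressure load and its link to diastolic function, which is how well the ventricle relaxes and fills.

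Titin is a giant elastic protein that runs from the Z-disc to the M-band of the sarcomere. It acts as a spring, and together with collagen it sets how stiffly resting heart muscle resists filling. Rbm20 removes exons of the spring region when titin RNA is spliced, so its activity governs the length of the spring and the stiffness of the heart. Ankrd1, Ankrd2 and Ankrd23 bind the elastic I-band part of titin and also enter the nucleus, and they are known as genes that respond to stretch and overload. Tcap and Csrp3 sit with titin at the Z-disc, Mypn links the ankyrin proteins to the Z-disc, and Fhl1 and Fhl2 are LIM-domain proteins that bind titin and pass on hypertrophic signals.

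1 array lay farthest from the CON mean. Over all genes the root mean square log2 difference from the CON mean was 0.711 on array RVF+ 8, against 0.326 to 0.448 for the remaining RVF+ and RVF samples and 0.157 to 0.212 on single CON arrays. This distance includes any difference between groups, and each CON array is part of the mean it was measured against. For the genes of the group, differences that involve RVF+ are given with and without RVF+ 8, as are the counts of related gene lists. The second Ttn probe set and related genes named singly are given with it only.

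The genes moved apart. In RVF+ ventricles the 3 ankyrin genes, Csrp3 and Fhl1 were higher than in CON and Ttn, Rbm20, Mypn and Fhl2 were lower. In RVF ventricles Ankrd1, Ankrd23, Csrp3 and Fhl1 were higher and Fhl2 was lower, while the other genes did not pass the test. No gene of the group passed between RVF+ and RVF. That is 9 of 9 measured genes past the test in RVF+ against CON, where 27.7% of all genes passed, and 5 of 9 in RVF against CON, where 17.1% did. At an unadjusted p under 0.05 stood 8 of 9 genes in RVF against CON, beside 29.7% of all genes. Shares of all genes, here and below, include dim genes, whereas the 9 genes, Ankrd2 apart, reached the median level. With only genes of that level fitted, a larger share of genes passed in both comparisons with CON. The shares of all genes are therefore a low background for genes as bright as these.

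Promoter sequence was at hand in RefSeq (build GRCr8) for 6 of the genes, in 8 windows that run from 250 bases before to 50 bases after a start site. A window of each of the 6 is shown, the upstream one for Fhl1 and Fhl2, because Ankrd23, Ankrd2 and Fhl1 were higher and Ttn, Fhl2 and Mypn lower in RVF+ than in CON. They lie at chr9:46274461-46274760 on the minus strand for Ankrd23, chr1:250796169-250796468 on the plus strand for Ankrd2, chrX:139638246-139638545 on the plus strand for Fhl1, chr3:82332061-82332360 on the minus strand for Ttn, chr9:52954491-52954790 on the minus strand for Fhl2 and chr20:25435304-25435603 on the plus strand for Mypn. Capitals mark matches, on either strand, to the CArG box bound by serum response factor, the MEF2 site, the M-CAT element CATTCC bound by TEAD factors, the TATA box TATAAA and the GATA site AGATAA.
Ankrd23: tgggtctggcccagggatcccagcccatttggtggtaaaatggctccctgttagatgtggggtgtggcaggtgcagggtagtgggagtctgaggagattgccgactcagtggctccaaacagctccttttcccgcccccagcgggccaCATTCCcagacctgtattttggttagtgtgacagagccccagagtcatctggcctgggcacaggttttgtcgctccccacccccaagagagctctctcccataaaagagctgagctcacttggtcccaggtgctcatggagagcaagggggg
Ankrd2: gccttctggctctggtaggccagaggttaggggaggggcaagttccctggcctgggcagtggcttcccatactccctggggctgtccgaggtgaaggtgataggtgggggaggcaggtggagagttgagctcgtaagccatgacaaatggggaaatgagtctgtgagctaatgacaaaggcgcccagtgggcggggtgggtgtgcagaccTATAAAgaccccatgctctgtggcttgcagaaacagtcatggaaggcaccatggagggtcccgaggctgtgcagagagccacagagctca
Fhl1: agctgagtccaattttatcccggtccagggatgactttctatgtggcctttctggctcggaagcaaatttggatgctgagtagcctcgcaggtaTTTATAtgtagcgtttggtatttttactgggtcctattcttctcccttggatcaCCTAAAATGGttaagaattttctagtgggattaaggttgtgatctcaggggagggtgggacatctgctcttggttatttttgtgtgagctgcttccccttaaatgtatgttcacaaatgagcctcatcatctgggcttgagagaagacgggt
Ttn: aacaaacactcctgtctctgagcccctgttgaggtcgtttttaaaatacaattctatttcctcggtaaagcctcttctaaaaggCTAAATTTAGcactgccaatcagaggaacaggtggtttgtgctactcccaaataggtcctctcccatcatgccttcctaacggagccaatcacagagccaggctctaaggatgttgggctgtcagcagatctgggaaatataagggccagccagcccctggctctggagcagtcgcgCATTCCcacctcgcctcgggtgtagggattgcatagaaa
Fhl2: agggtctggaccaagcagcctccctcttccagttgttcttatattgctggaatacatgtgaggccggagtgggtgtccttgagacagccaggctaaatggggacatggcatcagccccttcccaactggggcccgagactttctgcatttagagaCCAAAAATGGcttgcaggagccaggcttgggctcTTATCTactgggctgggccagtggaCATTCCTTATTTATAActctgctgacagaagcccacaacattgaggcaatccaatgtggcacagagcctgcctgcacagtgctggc
Mypn: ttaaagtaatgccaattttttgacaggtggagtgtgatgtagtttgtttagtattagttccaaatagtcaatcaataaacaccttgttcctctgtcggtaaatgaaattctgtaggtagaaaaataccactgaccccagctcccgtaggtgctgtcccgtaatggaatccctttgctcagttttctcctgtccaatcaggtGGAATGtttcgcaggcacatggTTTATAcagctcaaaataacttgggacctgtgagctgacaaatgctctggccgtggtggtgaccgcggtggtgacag
The Ankrd23 window held an M-CAT element at position -102 from the start site, and the Ankrd2 window held a TATA box at -40. The Ttn window held a MEF2 site at -166 and an M-CAT element at 11. The Fhl2 window held a CArG box at -95, a GATA site at -61 and an M-CAT element at -36 that runs directly into a MEF2 site at -30, which overlaps a TATA box at -27. The Mypn window held an M-CAT element at -49 and a TATA box at -27. The Fhl1 window held a TATA box at -156 and a CArG box at -102. The other Fhl2 window, at chr9:52923277-52923576 on the minus strand, held a CArG box as well. The other Fhl1 window, at chrX:139645222-139645521 on the plus strand, held none of these 5 elements. Among all 33469 promoter windows, 1.64% held a CArG box, 3.29% a MEF2 site, 14.2% an M-CAT element, 14.2% a TATA box and 11.6% a GATA site. The E-box CANNTG, which is not in capitals, was found in each of the 8 windows and in 72.1% of all windows. A match describes the letters and does not show that a factor binds.

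The first question was whether titin and its splicing factor differed in RVF+ and RVF ventricles. Ttn was 1.29-fold lower in RVF+ than in CON and Rbm20 1.47-fold lower, and both had smaller differences in RVF that did not pass. Levels are intensities from RMA, a background correction, normalization and summary of the probes, on a linear scale on which the median of all probe sets was 27.1 to 29.3. Array numbers are those of the sample titles. Intensities are compared between samples and not between genes, since each probe set has its own brightness.

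Ttn was measured by 2 probe sets. The brighter had intensities of 2236, 2821, 2242, 3249.9 and 3010.5 on RVF+ arrays 8 to 12 and of 3272, 3139, 3305 and 2999 on RVF arrays 13 to 16, against a range of 2894.5 to 3869.9 with a median of 3498 in CON. RVF+ 8 and RVF+ 10 were the low samples, and 3 of 5 RVF+ arrays lay below all CON arrays while the other two lay within their range. All RVF arrays lay within the CON range. In RVF+ the log2 mean was 11.39 ± 0.25 (SD, n = 5). It was 11.63 ± 0.06 (SD, n = 4) for RVF arrays, against 11.76 ± 0.13 (SD, n = 7) for CON arrays. The difference from CON was -0.37 ± 0.10 in RVF+ (log2 difference ± SE, here and below, limma, adjusted p = 0.00882) and -0.12 ± 0.10 in RVF (adjusted p = 0.476, 95% interval from -0.34 to 0.10).

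The other Ttn probe set gave the same picture. It had 1422, 1861, 1525, 2114 and 1883 in RVF+ and 1949, 2095, 2094 and 1944 in RVF, against 1912 to 2413 with a median of 2250.4 in CON. Fitted beside all 18644 probe sets, its difference was -0.36 ± 0.09 in RVF+ against CON (limma, adjusted p = 0.00665) and -0.15 ± 0.10 in RVF against CON (adjusted p = 0.334). Its intensity was 62.5% to 68.0% of that of the brighter probe set in RVF+, 59.6% to 66.7% in RVF and 62.3% to 66.4% in CON. The log2 ratio of the 2 probe sets differed by 0.0038 between RVF+ and CON (two-sided exact permutation test, p = 0.884 over 792 splits, adjusted p = 0.884 over 3 comparisons), by -0.029 between RVF and CON (exact p = 0.409 over 330 splits, adjusted p = 0.667) and by 0.033 between RVF+ and RVF (exact p = 0.444 over 126 splits, adjusted p = 0.667). Which exons each probe set covers is not stated in the annotation used here, so this ratio does not measure titin isoforms.

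**Figure D1:**
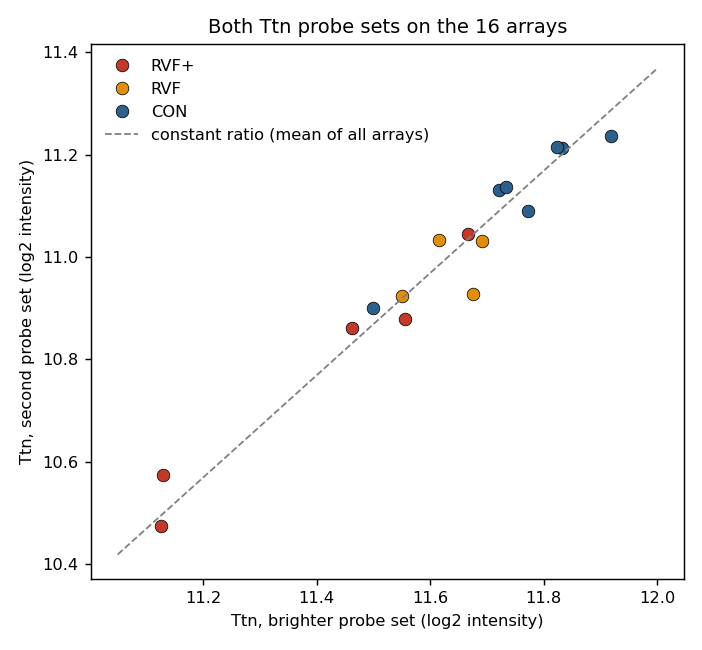
Log2 intensity of the second Ttn probe set (vertical axis) against that of the brighter one (horizontal axis) on the 5 RVF+, 4 RVF and 7 CON arrays, 1 point per array, with a dashed line at the mean ratio over the 16 arrays. The points follow the line in all 3 groups, RVF+ 8 and RVF+ 10 lie lowest on both axes, and the CON array at the lower end is CON 1.

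Rbm20 had intensities of 102, 159, 144, 177 and 165 in RVF+ and of 181, 184, 194 and 159 in RVF, against 187 to 242 with a median of 223 in CON. All 5 RVF+ arrays lay below every CON array, with RVF+ 8 lowest, and 3 of 4 RVF arrays did so too. The difference from CON was -0.55 ± 0.11 in RVF+ (limma, adjusted p = 0.00154) and -0.27 ± 0.12 in RVF (adjusted p = 0.153). The RVF value passed once RVF+ 8 was left out of the shared estimate of spread (the same -0.27, now ± 0.09, adjusted p = 0.0287). In RVF+ the difference without RVF+ 8 was -0.42 ± 0.09 for Rbm20 (adjusted p = 0.00129) and -0.30 ± 0.10 for Ttn (adjusted p = 0.0258). Ttn and Rbm20 had their lowest value on the same array in each group (RVF+ 8, RVF 16 and CON 1), and their highest on the same array too (RVF+ 11, RVF 15 and CON 2). Most of these arrays were extreme for other genes of the group as well. Mypn and Fhl2 were also lowest on RVF+ 8, Ankrd23, Csrp3, Fhl1 and Fhl2 on RVF 16, and Csrp3 and Mypn on CON 1. Mypn was also highest on RVF+ 11, and Ankrd1 and Ankrd23 on RVF 15, but no other gene on CON 2.

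**Figure D2:**
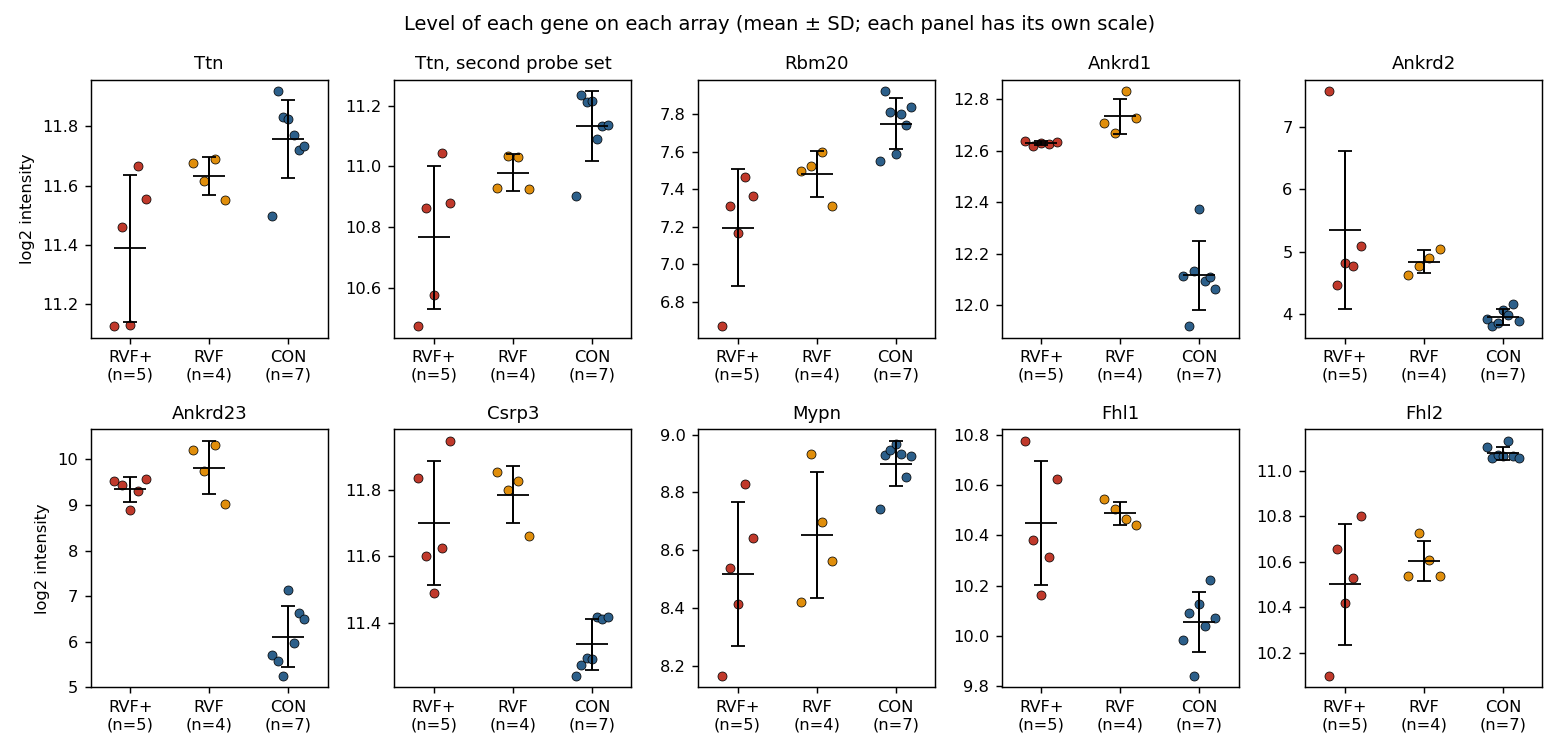
Log2 intensity of 9 genes and of the other Ttn probe set on each array, by group (RVF+, RVF and CON from left to right), with points for arrays in the order of their numbers, a horizontal bar at the mean and whiskers of 1 SD; each panel has its own vertical scale. Ankrd23, Ankrd1 and Csrp3 lie above all CON arrays in every RVF+ and RVF array, Fhl2 lies below all of them, and Ankrd2 stands far up on RVF+ 8 alone.

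The muscle ankyrin genes had the largest positive differences of the group. Ankrd23, the diabetes-related ankyrin repeat protein, was 9.42-fold higher in RVF+ and 13.1-fold higher in RVF than in CON. It had 737, 695, 473, 639 and 755 in RVF+ and 1175, 859, 1268 and 521 in RVF, against 38.2 to 141 with a median of 62.5 in CON. Every RVF+ and RVF array was above every CON array, and the CON arrays themselves spread 3.69-fold, more than the 1.60-fold of RVF+ and the 2.43-fold of RVF. The difference was 3.24 ± 0.29 in RVF+ (limma, adjusted p = 8.97e-07) and 3.71 ± 0.31 in RVF (adjusted p = 8.09e-07). By size it was number 4 among the rises of all 17245 genes in RVF+ and number 2 in RVF.

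Ankrd1, the cardiac ankyrin repeat protein and a cofactor of transcription, was already among the brightest probe sets in CON and rose less. It had 6372, 6282, 6346, 6318 and 6348 in RVF+ and 6685, 6521, 7282 and 6779.8 in RVF, against 3876 to 5315.5 with a median of 4421 in CON. All arrays of RVF+ and RVF exceeded all CON arrays, the highest of which was CON 4. The difference was 0.51 ± 0.07 in RVF+ (1.43-fold, limma, adjusted p = 4.22e-05) and 0.62 ± 0.07 in RVF (1.53-fold, adjusted p = 2.19e-05). The deposited values carry no mark for saturated probes.

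Ankrd2, which is best known from slow skeletal muscle, was dim in CON and, RVF+ 8 apart, near the middle of the array in RVF+ and RVF. It had 189, 22.0, 28.2, 27.4 and 34.2 in RVF+ and 24.6, 27.3, 29.98 and 33.1 in RVF, against 14.0 to 17.9 with a median of 15.2 in CON. RVF+ 8 stood far above the rest, at 6.85 times the geometric mean of the other RVF+ arrays, and yet all RVF+ and all RVF arrays were above every CON array. The difference was 1.39 ± 0.36 in RVF+ (limma, adjusted p = 0.00802) and 0.88 ± 0.39 in RVF (adjusted p = 0.135). Without RVF+ 8 it was 0.83 ± 0.11 in RVF+ (1.78-fold, adjusted p = 2.44e-05) and again 0.88 in RVF, now ± 0.11 (1.84-fold, adjusted p = 1.31e-05). These folds depend on the scale, since the level in CON is low: on the log2 of value plus 16, with RVF+ 8 included, the differences were 0.92 ± 0.30 in RVF+ (limma, adjusted p = 0.0323) and 0.50 ± 0.32 in RVF (adjusted p = 0.337). The array that raised the mean in RVF+ thus also widened the shared spread against which RVF was tested. The summed intensity of the 9 measured skeletal muscle markers was 330 on RVF+ 8, against 266 to 421 on the other RVF+ arrays, and most of that sum was Casq1, at 178 on RVF+ 8, and Tnnt3, at 65.9. Among the dim markers Myh2 was 24.0 on RVF+ 8, above the 15.6 to 17.7 of the other RVF+ arrays, and Tnni2 was 12.8, below their 18.7 to 23.3. The part of skeletal muscle in the Ankrd2 value was not tested. Of these markers Tnni2, Tnnc2, Myh2, Actn3, Pvalb, Myod1 and Myf6 had group means below the median of all genes in RVF+, RVF and CON.

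The Z-disc partners went in opposite directions. Csrp3, the muscle LIM protein that anchors signalling molecules at the Z-disc, had 3658, 3106, 2873, 3156.5 and 3947 in RVF+ and 3703, 3564, 3632.5 and 3241 in RVF, against 2420 to 2735.5 with a median of 2513 in CON. No array of either group overlapped with CON. The difference was 0.36 ± 0.08 in RVF+ (1.29-fold, limma, adjusted p = 0.00232) and 0.45 ± 0.09 in RVF (1.37-fold, adjusted p = 0.00127).

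Mypn, myopalladin, which tethers nebulin-family proteins to alpha-actinin and binds Ankrd1, had 287, 372, 341, 455 and 399 in RVF+ and 343, 489, 415 and 378 in RVF, against 428 to 500.3 with a median of 487 in CON. In RVF+ 4 of 5 arrays, and in RVF 3 of 4, were below all CON arrays. The difference was -0.38 ± 0.10 in RVF+ (1.30-fold lower, limma, adjusted p = 0.0105) and -0.25 ± 0.11 in RVF (adjusted p = 0.145, 95% interval from -0.48 to -0.01).

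The LIM-only proteins that bind titin were also split. Fhl1, known as a part of the stretch-sensing complex on the titin spring in mice, had 1753, 1334, 1145, 1272 and 1578 in RVF+ and 1493.5, 1453, 1413 and 1389.7 in RVF, against 918 to 1193 with a median of 1076 in CON. RVF+ 10 was the single RVF+ array within the CON range, and all RVF arrays were above it. The difference was 0.40 ± 0.09 in RVF+ (1.32-fold, limma, adjusted p = 0.00437) and 0.43 ± 0.10 in RVF (1.35-fold, adjusted p = 0.00648).

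Fhl2, which docks metabolic enzymes to titin and restrains hypertrophic signalling in mice, had 1097, 1615, 1367, 1475 and 1786 in RVF+ and 1486, 1691, 1559 and 1486 in RVF, against the narrow range of 2127 to 2239 with a median of 2139.8 in CON. No RVF+ or RVF array reached the lowest CON array, and RVF+ 8 was lowest of all. The difference was -0.58 ± 0.09 in RVF+ (1.49-fold lower, limma, adjusted p = 0.000192) and -0.48 ± 0.10 in RVF (1.39-fold lower, adjusted p = 0.00279).

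Counted over the group, 5 of the 9 genes were higher and 4 lower in RVF+ against CON, with a median difference of 0.36, beside -0.012 over all genes. Among all 17245 genes, 14.1% were called higher and 13.6% lower. These were 2423 genes higher and 2348 lower, and 1998 and 3004 once each array had been centred on its median, while the 9 genes kept their calls. Without overlap with CON were 4 of the 9 genes above it and 2 below it, against 6.96% and 7.63% of all genes. In RVF against CON 4 genes were higher and 1 lower, with a median of 0.43 beside -0.0087 over all genes, of which 8.86% were called higher and 8.29% lower. Without overlap with CON were 5 of the 9 genes above it and 1 below it, against 9.83% and 9% of all genes. Without RVF+ 8 the calls were again 5 higher and 4 lower in RVF+ against CON, and were 5 higher and 2 lower in RVF against CON. In the same fit 12.9% of all genes were higher and 12% lower in RVF+ against CON, and 13.4% higher and 11.2% lower in RVF against CON, so the calls in RVF increased over all genes as well. In RVF+ against CON the values without RVF+ 8 were 0.51 for Ankrd1, 3.19 for Ankrd23, 0.33 for Csrp3, 0.32 for Fhl1 (limma, adjusted p = 0.0109), -0.48 for Fhl2 and -0.29 for Mypn (adjusted p = 0.0295). Both comparisons share the CON arrays, so the likeness of their values is not independent evidence.

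**Figure D3:**
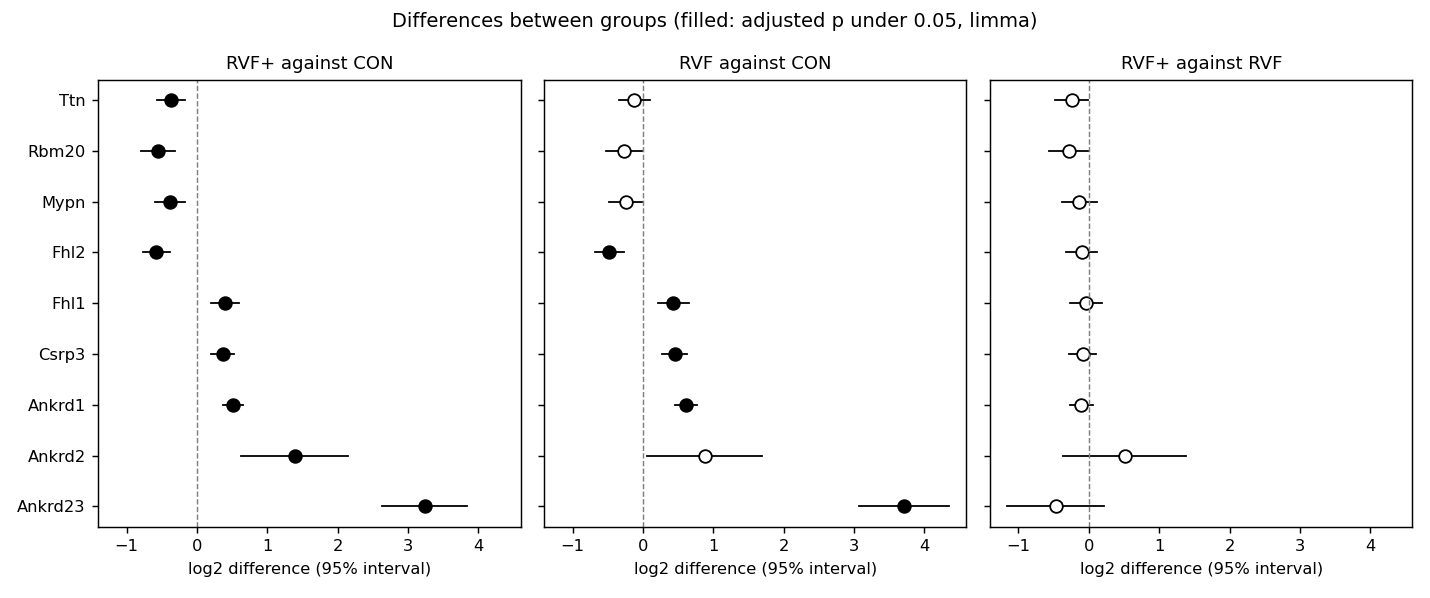
Log2 difference between groups (horizontal axis) with its 95% interval from limma for each of 9 genes, in RVF+ against CON, RVF against CON and RVF+ against RVF. Filled points have an adjusted p under 0.05, and the dashed line marks no difference. Ttn, Rbm20, Mypn and Fhl2 lie left of the line and the other genes right of it in both comparisons with CON, and no point is filled in RVF+ against RVF.

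The third comparison asks how RVF+ ventricles differed from RVF ventricles. None of the 9 genes passed. Limma called 0 of the 17245 genes (0%) here, with 1242 (7.2%) at an unadjusted p under 0.05, and no other tool was run. The difference was -0.25 ± 0.11 for Ttn (unadjusted p = 0.0425, adjusted p = 0.671) and -0.29 ± 0.13 for Rbm20 (unadjusted p = 0.0428, adjusted p = 0.671), with 3 of 5 RVF+ arrays below all RVF arrays in each. Without RVF+ 8 they were -0.18 and -0.16. For Ankrd1 the groups did not overlap, at 6282 to 6372 in RVF+ and 6521 to 7282 in RVF, but the difference was small (-0.10 ± 0.08, adjusted p = 0.838, 95% interval from -0.27 to 0.06). It was 1 of 9 genes lower without overlap and 0 were higher, beside 1.15% and 0.586% of all genes, 1.74% in either direction. For Ankrd23 the difference was -0.47 ± 0.33 (95% interval from -1.16 to 0.22), for Ankrd2 0.51 ± 0.42 (-0.37 to 1.38, and -0.05 without RVF+ 8), for Mypn -0.13 ± 0.12 (-0.39 to 0.12) and for Fhl2 -0.10 ± 0.11 (-0.32 to 0.12). For Csrp3 it was -0.09 ± 0.09 (-0.28 to 0.11) and for Fhl1 -0.04 ± 0.11 (-0.27 to 0.19). Without RVF+ 8 the differences were -0.11 for Ankrd1, -0.52 for Ankrd23, -0.05 for Mypn, -0.0003 for Fhl2, -0.12 for Csrp3 and -0.12 for Fhl1. CON lay at 1 end of the order of means for each of the 9 genes. The share of all genes with this order was not computed, so it is not a trait of this group. The lack of a call between RVF+ and RVF was shared by all 17245 genes. Intervals of this width do not show that RVF+ and RVF were alike.

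Related genes were read from lists of titin partners, titin kinases, splicing factors, LIM proteins, mechanosensors and collagen genes, some of which share members. The lists were chosen with earlier results of these data known. Over all genes, 14.1% were higher and 13.6% lower in RVF+ against CON, and 8.86% and 8.29% in RVF against CON. These shares stand beside the counts of every list below. Of 21 measured partners of titin at the Z-disc, I-band and M-band, 2 were higher and 9 lower in RVF+ and 5 higher and 4 lower in RVF, with medians of -0.22 and -0.06. Myot, the Z-disc protein myotilin of the same family as Mypn, was 2.55-fold higher in RVF+ (1.35 ± 0.21, limma, adjusted p = 0.000139) and 2.33-fold in RVF, and the autophagy receptor Sqstm1, which takes part in signalling from the titin kinase, was 1.23-fold higher in RVF+ (adjusted p = 0.0192; 0.36 in RVF, adjusted p = 0.0148). Obsl1, a relative of the M-band protein obscurin, fell in both (-0.81 ± 0.09 in RVF+, adjusted p = 7.43e-06, and -0.69 ± 0.10 in RVF, adjusted p = 9.10e-05). The ubiquitin ligase Trim63, which docks near the titin kinase, was 1.66-fold lower in RVF+ (and -0.57 in RVF, adjusted p = 0.0259). The M-band gene Myom3 was 1.52-fold lower in RVF and differed by -0.53 in RVF+ (limma, adjusted p = 0.000611). The small heat shock gene Hspb1, whose protein protects unfolded titin, differed by 0.50 in RVF+ (adjusted p = 0.0840) and was 1.76-fold higher in RVF (adjusted p = 0.0168). Without RVF+ 8 the counts were 4 higher and 10 lower in RVF+ and 5 higher and 7 lower in RVF. In that fit, which also gave the counts without RVF+ 8 of the lists that follow, 12% of all genes were lower in RVF+ and 11.2% in RVF, the second up from 8.29%.

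Of 7 measured enzymes that phosphorylate or dephosphorylate the titin spring, 0 were higher and 5 lower in RVF+, and 1 was higher and 2 lower in RVF. Prkaca, a catalytic subunit of protein kinase A, whose action on titin lowers stiffness, was 1.41-fold lower in RVF+ (-0.50 ± 0.08, limma, adjusted p = 0.000225) and 1.22-fold lower in RVF (adjusted p = 0.0278). Prkg1, the cyclic GMP-dependent kinase with a like effect, was 1.33-fold lower in RVF+ (adjusted p = 0.0139) and differed by -0.14 in RVF (adjusted p = 0.514). Prkca, protein kinase C alpha, whose action on titin raises stiffness, differed by -0.03 in RVF+ (adjusted p = 0.783) and was 1.20-fold higher in RVF (adjusted p = 0.0155). The phosphatase gene Ppp5c differed by -0.35 in RVF+ (adjusted p = 0.000350) and was 1.32-fold lower in RVF. Without RVF+ 8 the counts were 0 higher and 4 lower in RVF+, and those in RVF were the same. These are RNA levels, and phosphorylation was not measured.

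Of 12 genes whose RNA is known to be spliced by Rbm20, Ttn left aside, 2 were higher and 7 lower in RVF+ and 3 higher and 4 lower in RVF (medians -0.37 and -0.15). Trdn, which encodes the calcium release protein triadin, was 1.76-fold lower in RVF+ and 1.83-fold in RVF, and the calcium channel gene Cacna1c 1.71-fold and 1.58-fold. Lrrfip1 was 1.40-fold and 1.43-fold higher, and Rtn4, a protein of the endoplasmic reticulum, 1.28-fold and 1.44-fold. These are summed RNA levels that do not show exon use. Leaving out RVF+ 8 gave 1 higher and 6 lower in RVF+ and 3 higher and 5 lower in RVF. Among 12 measured splicing regulators of muscle, 1 was higher and 4 lower in RVF+, beside 14.1% and 13.6% of all genes. In RVF 0 were higher and 3 lower, beside 8.86% and 8.29%. Rbfox1, which steers muscle exons, fell in both (-1.85 ± 0.27, 3.62-fold lower in RVF+, limma, adjusted p = 6.49e-05, and -1.57 ± 0.28, 2.96-fold lower in RVF, adjusted p = 0.000914), beside -0.55 and -0.27 for Rbm20. Rbm24, an RNA-binding protein that promotes muscle exons, was 1.65-fold lower in RVF+ and 1.37-fold lower in RVF, and Ptbp1, a repressor of exons, was 1.37-fold higher in RVF+ (adjusted p = 0.0148) and differed by 0.18 in RVF (adjusted p = 0.447). The regulators had 1 higher and 3 lower in RVF+ without RVF+ 8, and 0 higher and 3 lower in RVF.

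Among 19 LIM-domain relatives of Csrp3, Fhl1 and Fhl2, 8 were higher and 5 lower in RVF+ and 8 higher and 3 lower in RVF (medians 0.28 and 0.23). Csrp2, the paralog of Csrp3 known from smooth muscle, was 2.62-fold higher in RVF+ and 3.69-fold in RVF (1.39 ± 0.21 and 1.88 ± 0.22, limma, adjusted p = 0.000103 and 1.89e-05), beside 0.36 and 0.45 for Csrp3. The focal adhesion gene Tes was 1.93-fold and 1.75-fold higher. Fhl3 fell as Fhl2 did and was 1.57-fold and 1.43-fold lower, and the Z-disc gene Ldb3 was 1.66-fold and 1.39-fold lower. Without RVF+ 8 the counts were 9 higher and 4 lower in RVF+ and 8 higher and 4 lower in RVF.

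Of 23 genes of mechanosensing and the stretch response, 11 were higher and 4 lower in RVF+ and 11 higher and 3 lower in RVF (medians 0.27 and 0.38). The natriuretic peptide genes rose, Nppa by 4.26 ± 0.50 in RVF+ and 4.57 ± 0.54 in RVF, and Nppb by 2.70 ± 0.33 and 2.76 ± 0.36 (limma, adjusted p = 1.14e-05, 1.73e-05, 1.73e-05 and 4.17e-05). The stretch-activated channel gene Trpc1 was 1.52-fold lower in RVF+ and 1.46-fold in RVF. Other channel genes of the list, chosen after their values were seen, were higher: Piezo2 by 1.24 in RVF+ and 1.37 in RVF (adjusted p = 3.32e-07 and 3.28e-07), Trpc6 by 1.14 and 1.06 (7.04e-05 and 0.000390), and Piezo1 by 0.55 and 0.44 (0.00291 and 0.0279, all limma). Itgb1bp2, the muscle integrin partner melusin, was 1.27-fold lower in RVF+ (limma, adjusted p = 0.00964) and differed by -0.04 in RVF (adjusted p = 0.831). Vcl, vinculin, differed by -0.27 in RVF+ (adjusted p = 0.00857) and was 1.20-fold lower in RVF (adjusted p = 0.0244). The list had 11 higher and 4 lower in RVF+ and 13 higher and 3 lower in RVF without RVF+ 8, where the share of all genes higher in RVF was 13.4% in place of 8.86%. Genes of the other component of passive stiffness rose, with 12 of 13 collagen and crosslinking genes higher in RVF+ and 11 in RVF and 0 lower in either (medians 0.79 and 0.75). Loxl1, a lysyl oxidase that crosslinks elastic fibres, was 3.02-fold higher in RVF+ and 3.59-fold in RVF, and the collagen lysyl hydroxylase Plod2 3.53-fold and 2.86-fold. Without RVF+ 8 the counts were 12 higher in RVF+ and 13 in RVF, with medians of 0.55 and 0.75. In RVF+ against RVF, 0 genes of any of these lists passed.

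**Figure D4:**
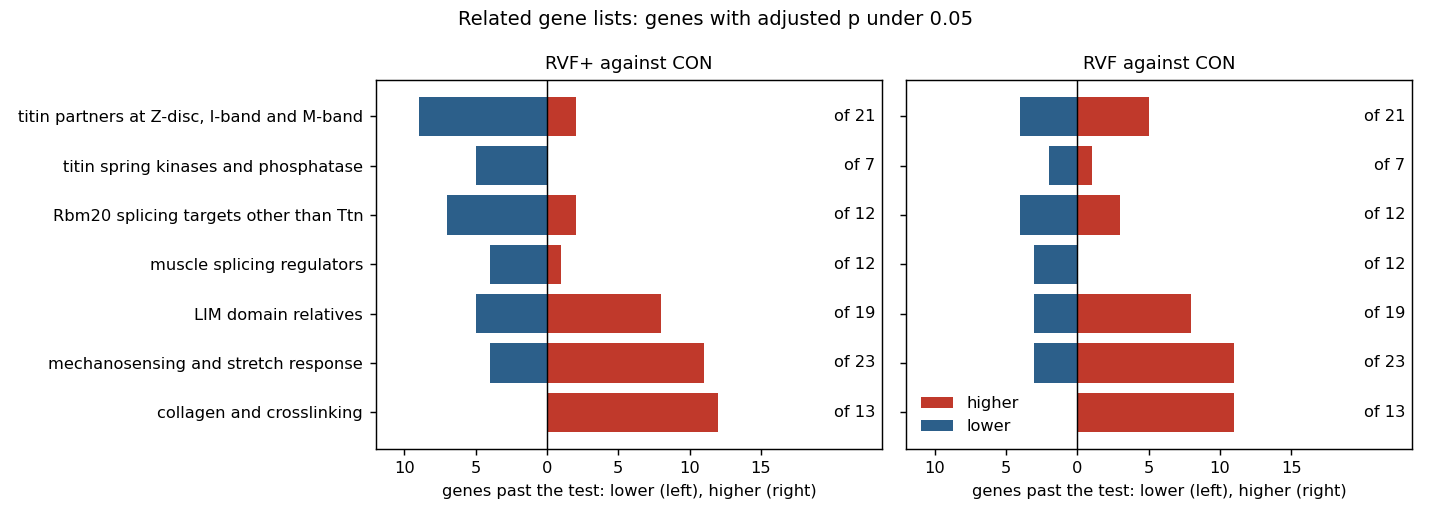
Number of genes past the test in each list of related genes (horizontal axis, lower to the left in blue and higher to the right in red, with the number measured at the right edge), in RVF+ against CON and RVF against CON. Titin partners split 2 higher and 9 lower in RVF+ and 5 higher and 4 lower in RVF, while collagen and crosslinking genes were higher only.

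Markers of heart muscle and of other cell types were present. All 10 cardiomyocyte markers had group means above the median of all genes in each group. So did the 6 macrophage and the 3 measured endothelial markers, and this level therefore does not single out cardiomyocytes. The summed intensity of the cardiomyocyte markers was 25990 to 40090 in RVF+, 38670 to 41090 in RVF and 41620 to 43620 in CON. RVF+ 8 was the lowest, and without it RVF+ began at 36940. In RVF+ 4 of the 10 markers were lower and 1 higher, and in RVF 0 were lower and 1 higher (4 and 1, and 3 and 1, without RVF+ 8). Over all genes 13.6% were lower and 14.1% higher in RVF+, and 8.29% and 8.86% in RVF. Without RVF+ 8 these shares were 12% and 12.9% in RVF+, and 11.2% and 13.4% in RVF. In RVF+ the lower values of Ttn, Rbm20, Mypn and Fhl2 stood beside 4 lower cardiomyocyte markers of 10, while Myh7 was 1.74-fold higher (limma, adjusted p = 1.58e-05). In RVF, with all arrays fitted, Fhl2 was lower and 0 of these markers were. In bulk tissue fewer cardiomyocytes and less RNA per cell cannot be told apart. The 6 macrophage markers summed to 1467 to 3886 in RVF+, 1174 to 1759 in RVF and 764 to 1107 in CON, with RVF+ 8 highest, and the 7 fibroblast markers to 7090 to 8052, 7024 to 8177 and 6129 to 7048. Endothelial markers summed to 992 to 1627 in RVF+, 817 to 1108 in RVF and 768 to 940.2 in CON, and erythroid markers to 2204 to 6579, 1861 to 4342 and 1902 to 2435. Smooth muscle markers summed to 512 to 849, 509.8 to 619 and 421 to 655, and those of skeletal muscle to 266 to 421, 384 to 523 and 249 to 429.5. Atrial markers summed to 3250 to 4937 in RVF+, 4837 to 6219 in RVF and 549 to 2588 in CON, a sum that contains Nppa. The atrial genes Myl7 and Sln differed by -1.52 and -1.49 in RVF+ (limma, adjusted p = 0.0661 and 0.0554) and by -1.93 and -1.86 in RVF (adjusted p = 0.0450 and 0.0399). Both varied widely within CON, Myl7 from 74.5 to 1774 (CON 5) and Sln from 87.7 to 1049 (CON 7). Neither RVF+ nor RVF was free of overlap with CON for these 2 genes. The part of these cells in the values of the genes described was not tested.

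Genes with the most similar profile were found as those with the smallest root mean square difference over the 16 arrays, after each log2 profile was centred on its own mean, among 9036 genes whose highest group mean reached the median level. For Ttn these were Hsd17b4 (0.0758), Satb1 (0.0795), the glucocorticoid receptor gene Nr3c1 (0.0890) and Dennd2b (0.0949), where Ttn itself varied with a root mean square of 0.218. For Rbm20, which varied by 0.300, they were the striated muscle kinase Speg (0.0809), Fam120c (0.0854), the nuclear receptor Esrrg (0.0901) and Ryr2, the calcium release channel (0.0907). Ryr2 is also a splicing target of Rbm20, and it is a cardiomyocyte marker that was lower in RVF+ (-0.47, limma, adjusted p = 0.00488). The basis of this likeness was not tested. For Ankrd1, which varied by 0.294, they were Pir, Nectin3, Kif5b and Plxdc2 (0.114 to 0.115). For Ankrd23, which varied by 1.79, they were Akip1 (0.453), Ncam1 (0.496), Tceal7 (0.580) and Nppb (0.645). The measure describes these 16 arrays, which share 1 normalization and differ in group.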

How the data were processed

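Per probe set and array the authors deposited 1 intensity, made by RMA per the submitters' processing notes, from cDNA labelled from 500 ng of total RNA without ribosomal RNA reduction, per the labels' protocols. The sources used here do not name the software, the array design or a genome build. The linear intensity values were converted to log2. Of 29214 probe sets, 18644 were paired with 1 symbol by the platform annotation, 962 with several and 9608 not listed. The entrez identifiers of 18460 matched RefSeq (GRCr8), with 0 symbols changed. The probe set with the highest mean stood for each of 17245 genes, and both Ttn probe sets were also tested.

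Groups came from the sample titles. Limma 3.58.1 in R 4.3.3 (lmFit and eBayes) was fitted to all 16 arrays and genes, with two-sided p-values adjusted by Benjamini-Hochberg over all genes and a threshold of 0.05. The ratio of the Ttn probe sets was tested by exact permutation. Only the limma step was tested on simulated data, with normal noise drawn independently for each gene and no outlying array. The text names the 10 genes, both Ttn probe sets, up to 2 rising and 2 falling genes past the test in each list and comparison, and the 4 genes most alike in profile to Ttn, Rbm20, Ankrd1 and Ankrd23. Outside this rule, Piezo1, Piezo2 and Trpc6 were chosen after their values were seen, and skeletal muscle markers are named beside Ankrd2. The genes and lists were chosen with earlier results of these data known. Alternatives covered normalization, centring, dim genes, probe sets, moderation, weights, a pseudocount and each array left out. The list counts without RVF+ 8 were added after the data were seen. The number of arrays limits the precision.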

Additional observations from a re-analysis of the deposited data

Results flagged for a closer look

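Ankrd2 on RVF+ 8 lay far from the other RVF+ arrays. Its intensity there was 189, against 22.0 to 34.2 on RVF+ 9 to 12, and the gap to the nearest array made up 0.794 of the range of the group on the log2 scale. It was the 1 such case among 30 groups of values examined (9 genes and the ratio of the Ttn probe sets, in 3 groups each), and chance alone gives about 1 in 20. On the same array Rbm20, Mypn, Fhl2 and Ttn were the lowest of RVF+, and Ankrd1 and Fhl1 the highest.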

How the results depend on the processing

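Each gene's difference was computed under 27 alternatives per comparison (26 for Ankrd2, which was too dim for the filter at the median level), 726 values in all. Of these, 720 stayed on their side of the threshold, no called difference changed sign, and uncalled ones changed sign for Ankrd2 (array weights, and without RVF+ 8) and Fhl1 (without RVF+ 10) in RVF+ against RVF. The other 6 newly passed, all of them Rbm20 and Ankrd2 in RVF against CON with only the compared groups fitted (adjusted p = 0.0311 and 9.43e-06), with array weights (0.0279 and 0.000807) and without RVF+ 8 (0.0287 and 1.31e-05). In those 3 settings 2 genes of the group were lower in RVF against CON in place of 1. Over all genes, RVF against CON gave 2440 higher with only the compared groups, and 2474 higher and 2214 lower with array weights, against 1528 and 1429. With each array left out in turn it gave 1004 (without RVF 13) to 2315 (without RVF+ 8) higher, with 1 to 2 genes of the group lower. RVF+ against RVF gave 0 to 3 genes higher with each array left out, the 3 without RVF+ 12. The cause was not tested. The difference in the Ttn probe set ratio between RVF and CON, -0.029, was -0.091 after quantile normalization (exact permutation test, adjusted p = 0.0727 over 3 comparisons) and -0.052 to 0.0026 with each array left out, the last without RVF 13. Between RVF+ and CON it was 0.0038, -0.034 after quantile normalization and -0.013 to 0.018 with each array left out, and none of these passed. Centring moved the median of all genes from -0.012 to -0.060 in RVF+ against CON. No paired analysis was possible because the groups share no replicate number. Precision is limited by the number of arrays and, for Ankrd2, by a level between the 31.5th and 40.3rd percentile of each CON array.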

Other observations

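Ankrd1 varied less between RVF+ arrays than any other of the 17245 genes, with an SD of 0.00787 on the log2 scale, where the median SD over all genes was 0.192. Among the 28 genes with a mean log2 intensity of at least 12 the median SD in RVF+ was 0.203. In CON the SD of Ankrd1 was 0.135, the largest of the same 28 genes, whose median there was 0.0453. The RVF+ arrays lay between 6282 and 6372 and the RVF arrays between 6521 and 7282. Ankrd1 was noticed for this spread after its values were seen, and the smallest of 17245 values is small by selection.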
